A study of Mus musculus with 6 samples.

Results

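The 4 Hox gene clusters of the mouse, Hoxa, Hoxb, Hoxc and Hoxd, were followed through peaks of open chromatin called in 6 ATAC-seq libraries of pro-B cell lines. Members were the peaks that overlapped 4 windows of the mouse build mm9, which were chr6:52090000-52230000 for Hoxa, chr11:95980000-96240000 for Hoxb, chr15:102740000-102880000 for Hoxc and chr2:74490000-74620000 for Hoxd. Peaks of the 6 lists that shared at least 1 bp were merged, which gave 120 regions in the Hox windows out of 149724 in the genome. Hoxa held 25 of these regions, Hoxb 33, Hoxc 42 and Hoxd 20. ATAC-seq uses a transposase that inserts sequencing adapters into accessible DNA, and a peak is a stretch where insertions pile up.

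The 3 lines were cultured from bone marrow of strain 129SV, and all of them lack RAG2, a subunit of the recombinase that cuts antigen receptor genes, so every comparison is made on a RAG2-deficient background. WT carries an intact IGCR1, an intergenic control region of the immunoglobulin heavy chain locus (IgH) that holds binding elements for CTCF (CBEs). CBE_1 and CBE_2 carry the genotype IGCR1-/- and are called mutated here. No line received a treatment. Each of the 3 lines gave 2 libraries from 200000 cells apiece, amplified by 11 PCR cycles and sequenced as single reads. The replicates are numbered in accession order, and nothing says that they came from separate cultures, so their spread may be technical. Whether a line is 1 clone is not given in the sources used here, and with 1 WT line, genotype and line cannot be told apart. The Hox clusters lie on other chromosomes than the mutated locus.

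Hox genes encode homeodomain transcription factors that give cells positional identity along the body axis, and their order on the chromosome follows the order of their expression in the embryo. Genes of low number, such as Hoxa2 or Hoxb1, pattern the head and hindbrain, while genes of high number, such as Hoxa13 or Hoxd13, pattern the limb ends and the hind trunk. In blood formation, genes such as Hoxa9, Hoxa10 and Hoxb4 are known for their activity in stem and progenitor cells, and silent Hox clusters are typically held under Polycomb repression. CTCF sites within the clusters are known boundaries between active and repressed stretches.

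Hox promoters are typically rich in CpG, the dinucleotide that marks many Polycomb-controlled starts, and 3 of them are printed to show the range among the members. The sequences are RefSeq promoters of build GRCm38.p6, 250 bases before the start of each gene, read 5′ to 3′ on the strand of the gene, with each CpG in capitals. Hoxa13, on the minus strand at chr6:52260881-52261130, had the most CpG of the member promoters. Hoxa9, on the minus strand at chr6:52227371-52227620, was among the poorest, and Hoxc4, on the plus strand at chr15:103034145-103034394, is the Hoxc promoter in the table.
Hoxa13: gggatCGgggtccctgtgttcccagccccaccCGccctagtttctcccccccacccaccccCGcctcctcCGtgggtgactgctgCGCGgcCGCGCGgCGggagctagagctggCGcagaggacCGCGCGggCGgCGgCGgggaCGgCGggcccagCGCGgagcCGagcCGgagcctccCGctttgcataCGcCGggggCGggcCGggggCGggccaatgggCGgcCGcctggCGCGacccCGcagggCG
Hoxa9: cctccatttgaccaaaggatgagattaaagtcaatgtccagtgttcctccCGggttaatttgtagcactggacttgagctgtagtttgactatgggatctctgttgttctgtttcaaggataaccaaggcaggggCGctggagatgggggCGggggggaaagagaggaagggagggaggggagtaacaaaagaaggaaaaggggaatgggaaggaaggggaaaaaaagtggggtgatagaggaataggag
Hoxc4: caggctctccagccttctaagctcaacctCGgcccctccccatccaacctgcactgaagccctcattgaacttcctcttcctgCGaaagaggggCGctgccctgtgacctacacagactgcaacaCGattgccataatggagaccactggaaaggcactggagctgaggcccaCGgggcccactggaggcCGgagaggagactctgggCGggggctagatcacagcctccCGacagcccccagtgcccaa
The printed stretch of Hoxa13 holds 35 CpG, that of Hoxc4 8 and that of Hoxa9 3. All 38 member genes were found in the RefSeq gene table, on the chromosomes of the 4 windows, and 22 of them had a promoter in the sequence table, with 24 promoters in all. Over the full 300 bases of a promoter, the 24 Hox promoters had a median of 14.5 CpG, with a range of 4 to 45, against 7 over all 32851 promoters. Of the 24, 20 (83.3%) were above the median of all promoters, which 48.6% of all promoters exceeded. The letters CCCTC, the core of the CTCF motif, were found on either strand in 17 of 24 (70.8%), against 66.0% of all promoters, so their share was close to the background. By cluster they were in 9 of 10 Hoxa, 3 of 3 Hoxb, 1 of 1 Hoxc and 4 of 10 Hoxd promoters. A match of these 5 letters is a description and not a binding site.

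GRCm38.p6 and mm9 coordinates cannot be set side by side, so no peak was assigned to a gene, and regions are named by cluster and by number, counted from the lowest coordinate of the window. The order of genes orients each window. In GRCm38.p6, Hoxa runs from Hoxa2 at the low end to Hoxa13 at the high end, while Hoxb runs from Hoxb13 to Hoxb1, Hoxc from Hoxc13 to Hoxc4, and Hoxd from Hoxd13 to Hoxd1. For the same reason the pro-B identity of the lines was not checked against marker genes here.

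The deposited lists held 112241 and 106056 peaks in WT cells, 72318 and 80242 in CBE_1 cells, and 94665 and 97522 in CBE_2 cells, so the shortest lists were those of CBE_1. The number of reads behind each list is unknown. The Hox windows held 39 and 33 peaks in WT cells, 59 and 53 in CBE_1 cells, and 95 and 83 in CBE_2 cells. The order of the lines in the Hox windows thus differed from the order of list lengths, and as a share of the list the Hox peaks made up 0.0347% and 0.0311% in WT cells, 0.0816% and 0.0661% in CBE_1 cells, and 0.100% and 0.0851% in CBE_2 cells. Peaks covered 21.6 and 19.8 kb of the windows in WT, 24.6 and 23.2 kb in CBE_1 cells, and 52.2 and 52.3 kb in CBE_2 cells. A peak that is open in few cells and one that is weakly open in all cells cannot be told apart in such bulk data.

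**Figure D1:**
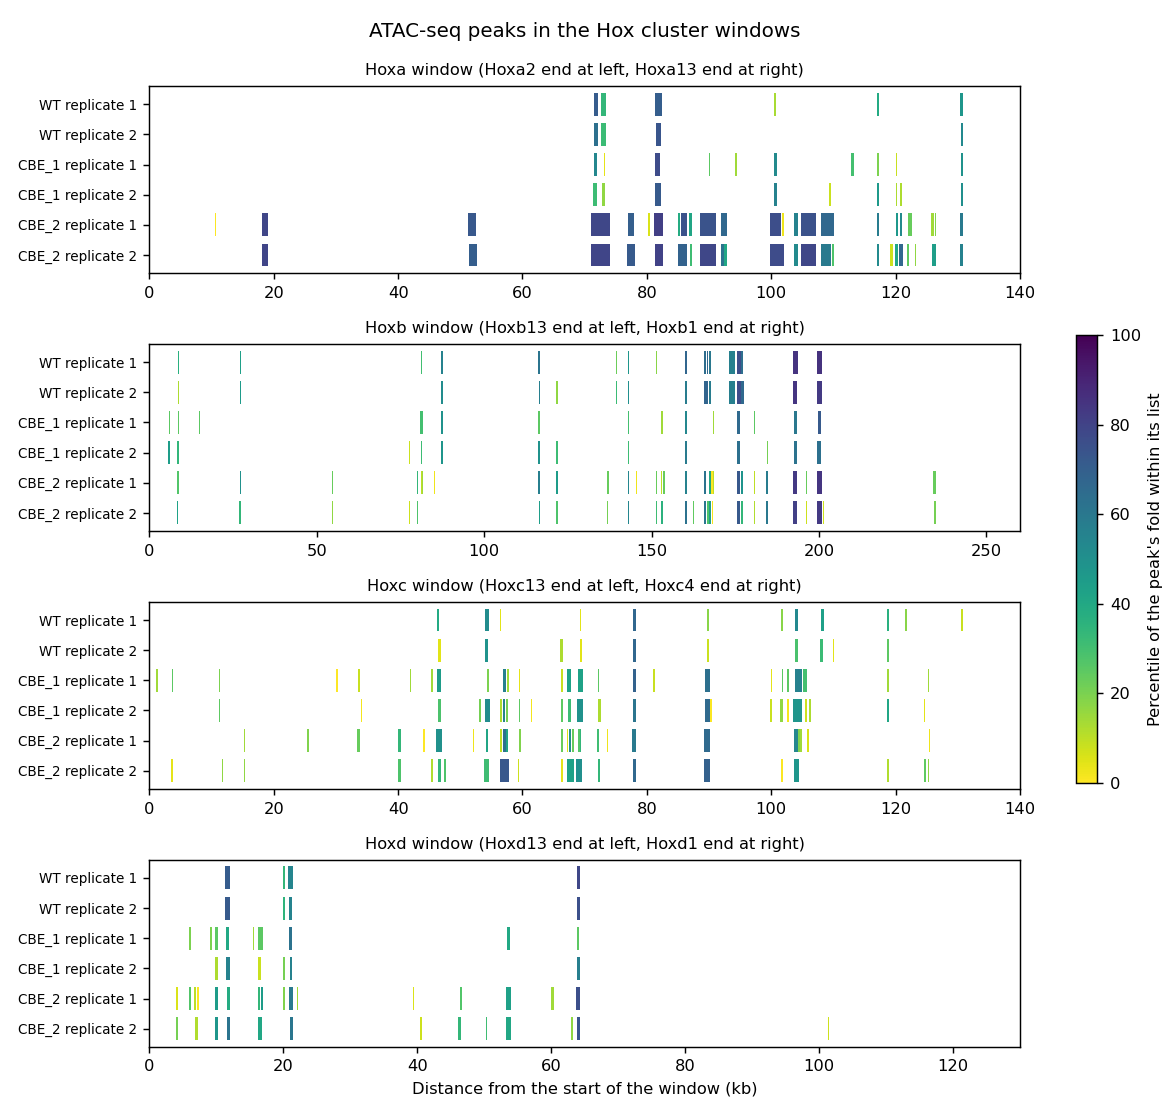
Positions of the deposited peaks in the 4 Hox windows, with distance from the start of the window in kb on the x axis and 1 row for each of the 6 libraries; colour gives the percentile of the fold of a peak within its own list. Hoxa is densely covered in both CBE_2 libraries from about its midpoint on, and the Hoxa2 side holds peaks in CBE_2 cells and in no WT or CBE_1 library.

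Hoxa carried several times more open chromatin in CBE_2 than in the other lines. Peaks covered 2.41% and 1.82% of the window in WT cells, 2.80% and 2.77% in CBE_1 cells, and 16.9% and 17.1% in CBE_2 cells. Both CBE_2 libraries were far above the other 4, which lay within 1 percentage point of each other. In mean covered length this was 2.96 ± 0.588 kb (SD, n = 2) in WT, 3.89 ± 0.0304 kb in CBE_1 cells and 23.8 ± 0.210 kb in CBE_2 cells, a ratio of 8.04 between CBE_2 and WT and of 6.12 between CBE_2 and CBE_1. The number of peaks was 6 and 4 in WT cells, 10 and 9 in CBE_1 cells, and 24 and 23 in CBE_2 cells. The ratio in covered length was larger than that in peak number (4.70 between CBE_2 and WT), while the median Hoxa peak was 538 and 655 bp wide in WT cells, 342 and 451 bp in CBE_1 cells and 632 and 618 bp in CBE_2 cells, so that WT and CBE_2 overlapped in median width. The flanks of the window, on each side as long as the window itself, were covered to 1.84% and 1.84% in WT cells, 1.17% and 1.24% in CBE_1 cells and 2.45% and 2.57% in CBE_2 cells, so the difference within the window was much larger than that beside it. The share of all peaks that lay on chromosome 6 was 5.38% and 5.34% in WT cells, 5.13% and 5.29% in CBE_1 cells, and 5.77% and 5.75% in CBE_2 cells; its part in the result was not tested.

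With 2 libraries a line, the exact permutation test cannot go below p = 0.333 for a pair of lines or 0.0667 for WT against the 4 mutated libraries. The covered share of Hoxa was 7.79 percentage points higher in the mutated libraries, with an exact p = 0.133 (two-sided) and 0.178 after adjustment over the 4 clusters. All 4 mutated libraries were above both WT libraries, but the size came from CBE_2, since CBE_1 exceeded WT by 0.665 points. The difference was 6.77 points with the better 50% of each list, by the deposited −log10 q-value, and 7.82 points with lists of equal length.

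The Hoxa2 side of the window, up to its midpoint, held no peak in any WT or CBE_1 library, which left 71.4 to 71.5 kb without a peak from the start of the window. In CBE_2 the same side held 3 and 2 peaks that covered 2.48 and 2.17 kb. These were chiefly region 2, chr6:52108058-52109063, with a fold over background of 10.2 and 9.77, and region 3, chr6:52141302-52142613, with 7.97 and 6.98. The fold is the value the authors' peak caller gave a peak and is compared within its list only: region 2 stood at percentiles 79.2 and 79.6 of its lists. Both were thus well above the median peak of the CBE_2 libraries while no peak was called there in the other lines. On the Hoxa13 side, peaks covered 4.83% and 3.64% in WT cells, 5.59% and 5.53% in CBE_1 cells and 30.3% and 31.2% in CBE_2 cells. The densest stretch was 100 to 110 kb from the window start, where 6995 and 6950 bp were covered in CBE_2, against 600 and 720 bp in CBE_1 cells and 319 and 0 bp in WT cells.

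Of the 25 Hoxa regions, 10 (40.0%) were present in both CBE_2 libraries and in no other library, a pattern called CBE_2-only that took 3.14% of all regions of the genome. Their widths ran from 391 to 2468 bp and summed to 11.3 kb. Their folds ran from 2.94 to 10.2 with a median of 6.58, and their list percentiles from 19 to 79.6. In 7 of the 10 the fold was above the list median in both CBE_2 libraries, which held for 11.1% of all CBE_2-only regions of the genome. Beside regions 2 and 3 they included region 15, chr6:52194810-52197277, the widest, at percentiles 74.7 and 78.8. Region 8, chr6:52174974-52176512, stood at 74.7 and 68.9, region 5, chr6:52166861-52168082, at 70.1 and 71.9, and region 11, chr6:52181873-52182903, at 66.5 and 61.6. Leaving out 1 library raised the number of CBE_2-only regions of Hoxa to at most 15, and 11 were counted with the better 50% of each list and 9 with lists of equal length.

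Of 19 Hoxa regions present in both CBE_2 libraries, 14 were absent from both WT libraries, against 11.2% of all regions present in both CBE_2 libraries. A fold above the list median in both CBE_2 libraries was found in 15 of the 19, against 56.7% of all such regions. Counted by peak, 15 of 24 and 15 of 23 Hoxa peaks of CBE_2 were above the list median. In Hoxa 1 region (4.00%) was mutated-only, which means present in all 4 mutated libraries and in neither WT library, against 1.52% of the genome. It was region 20, chr6:52209947-52210377, with folds of 2.87 and 2.71 in CBE_1 cells and 4.17 and 3.65 in CBE_2 cells. Hoxa had 3 regions present in all 6 libraries. Such regions were ranked by fold among the 47767 regions present in all 6 libraries, a set of the same length in each, so that their percentiles can be compared between libraries. The widest was region 4, chr6:52161080-52164000, at percentiles 39.5 and 30.0 in WT cells, 36.2 and 8.09 in CBE_1 cells, and 60.2 and 60.3 in CBE_2 cells. It was highest in CBE_2, while CBE_1 and WT overlapped. The highest ranked was region 7, chr6:52171191-52172558, at 37.8 and 46.7 in WT cells, 66.5 and 55.2 in CBE_1 cells, and 64.5 and 61.7 in CBE_2 cells. Region 7 was therefore open in every line and ranked lower in WT, and its neighbourhood was filled with further peaks in CBE_2 cells.

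**Figure D2:**
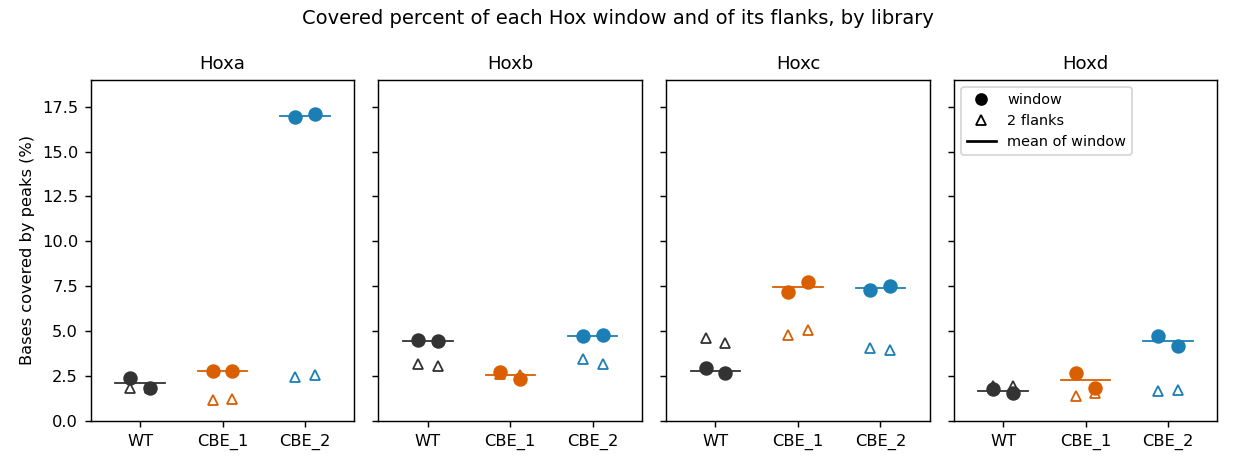
Percent of bases covered by peaks in each Hox window (circles, 1 for each of the 2 libraries a line, with the line mean as a bar) and in its 2 flanks (open triangles). Hoxa reached 16.9% and 17.1% in CBE_2 only, Hoxc was above 7% in all 4 mutated libraries, and Hoxb was lowest in CBE_1.

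Hoxb was the cluster with the most open chromatin in WT and the one in which CBE_1 lay below WT in covered length, with CBE_2 close to WT. Peaks covered 4.52% and 4.43% of the window in WT cells, 2.73% and 2.34% in CBE_1 cells, and 4.71% and 4.77% in CBE_2 cells. Mean covered length was 11.6 ± 0.169 kb (SD, n = 2) in WT, 6.59 ± 0.723 kb in CBE_1 cells and 12.3 ± 0.106 kb in CBE_2 cells. CBE_1 thus had 0.567 times the covered length of WT, and CBE_2 1.06 times. The number of peaks was 17 and 15 in WT cells, 14 and 13 in CBE_1 cells, and 28 and 26 in CBE_2 cells, so CBE_2 reached the same covered length with more and narrower peaks (median width 322 and 388 bp, against 474 and 516 bp in WT cells). Since CBE_1 also has the shortest lists, the covered bases were set against all covered bases of a list: Hoxb took 147 and 153 bp per Mb of covered bases in WT, 135 and 102 in CBE_1 cells and 177 and 177 in CBE_2 cells. Both CBE_1 libraries remained below both WT libraries on this scale, with a mean difference of -31.1 bp per Mb. The mutated libraries as a group overlapped with WT (difference in covered share -0.836 points, exact permutation p = 0.467, adjusted 0.467). The difference was -0.404 points without CBE_1 replicate 2. With the better 50% of each list it was -2.13 points (exact permutation, adjusted p = 0.133), and Hoxb was then covered to 3.82% and 3.98% in WT cells, 1.20% and 1.21% in CBE_1 cells and 2.44% and 2.22% in CBE_2 cells, with both mutated lines below WT.

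The lower coverage in CBE_1 lay on the side of the window toward Hoxb1, beyond the midpoint. That side was covered to 7.73% and 7.58% in WT cells, 3.44% and 2.85% in CBE_1 cells, and 7.22% and 7.87% in CBE_2 cells. The Hoxb13 side was covered to 1.30% and 1.27% in WT cells, 2.02% and 1.82% in CBE_1 cells and 2.20% and 1.66% in CBE_2 cells. CBE_1 was thus below WT on the Hoxb1 side and above it on the Hoxb13 side. Between 160 and 180 kb the difference was largest: from 170 to 180 kb, 3727 and 3653 bp were covered in WT, 696 and 887 bp in CBE_1 cells and 1553 and 1490 bp in CBE_2 cells.

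Hoxb had 3 regions that were absent from both CBE_1 libraries and present in the other 4, a pattern that took 5.05% of all regions. Region 22, chr11:96145507-96146993, had folds of 5.95 and 6.37 in WT cells and 5.76 and 5.37 in CBE_2 cells. Region 26, chr11:96156766-96157500, had 5.52 and 6.15 in WT cells and 4.29 and 3.33 in CBE_2 cells, and region 4, chr11:96006882-96007333, had 3.68 and 3.96 in WT cells and 4.41 and 3.33 in CBE_2 cells. The count was 1 when peaks were merged over gaps of up to 200 bp and 1 with the better 50% of each list. WT-only regions, present in both WT libraries alone, numbered 2 in Hoxb and 3 of 120 in all clusters, against 8.68% of the genome. The wider was region 24, chr11:96153084-96155021, 1938 bp long, with folds of 4.65 and 4.94, or percentiles 56.7 and 57.3 of the WT lists. The other, region 14, chr11:96119398-96119796, had folds of 2.92 and 3.30. Region 24 lies between regions 22 and 26, in the stretch where CBE_1 coverage was lowest against WT, although region 25 in the same stretch was present in all 6 libraries.

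The strongest Hoxb regions were present in every library and stood lower in CBE_1. Region 31, chr11:96179343-96180877, was both the highest ranked and the widest shared region, at percentiles 67.7 and 63.9 among shared regions in WT cells, 59.7 and 42.6 in CBE_1 cells, and 70.0 and 66.9 in CBE_2 cells. Its deposited folds were 12.6 and 11.5, 8.44 and 5.73, and 12.8 and 11.4 in the same order. Region 29, chr11:96172139-96173639, stood at percentiles 66.1 and 66.6 in WT cells, 43.9 and 40.6 in CBE_1 cells and 67.9 and 63.0 in CBE_2 cells. In both regions WT and CBE_2 overlapped and CBE_1 lay below them. Region 10, chr11:96067172-96067644, was the reverse case, absent from CBE_2 alone, with folds of 4.54 and 4.39 in WT cells and 4.52 and 4.07 in CBE_1 cells; 1 of 120 Hox regions had this pattern, against 0.653% of the genome. CBE_2-only regions numbered 5 in Hoxb (regions 5, 7, 13, 30 and 33), with folds of 2.58 to 3.43 and percentiles of 7.81 to 33.6. They were all weaker than the median peak of their list, unlike 7 of the 10 in Hoxa. The single CBE_1-only region of Hoxb, region 1, chr11:95985637-95986218, had folds of 3.32 and 3.86.

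Hoxc was the cluster in which both mutated lines stood above WT to a like extent in covered percent. Peaks covered 2.96% and 2.65% of the window in WT cells, 7.20% and 7.71% in CBE_1 cells, and 7.28% and 7.52% in CBE_2 cells. The 4 mutated libraries did not overlap with WT, and CBE_1 and CBE_2 overlapped with each other. Mean covered length was 3.93 ± 0.304 kb (SD, n = 2) in WT, 10.4 ± 0.507 kb in CBE_1 cells and 10.4 ± 0.235 kb in CBE_2 cells, or 2.66 and 2.63 times the WT length. The number of peaks was 12 and 10 in WT cells, 26 and 25 in CBE_1 cells, and 27 and 21 in CBE_2 cells. The mutated libraries were higher by 4.62 percentage points, with an exact permutation p = 0.0667, the smallest that 2 against 4 libraries allow, and 0.178 after adjustment over the 4 clusters. CBE_1 and CBE_2 differed by 0.0579 points (exact permutation p = 1.00), with duplicate SDs of 0.362 and 0.168 points. Set against all covered bases of a list, however, CBE_1 lay above CBE_2. Hoxc took 51.7 and 49.3 bp per Mb in WT cells, 192 and 181 in CBE_1 cells and 148 and 150 in CBE_2 cells. With lists of equal length Hoxc was covered to 7.20% and 6.44% in CBE_1 cells, also above the 5.15% and 5.82% in CBE_2 cells.

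The Hoxc peaks were weak for their lists. The median percentile of the peaks in the window was 19.7 and 20.9 in CBE_1 cells and 23.3 and 28.0 in CBE_2 cells, against 27.2 and 18.7 in WT cells. With the better 50% of each list the difference in covered share was 1.43 points, and with lists of equal length it was 4.70 points. The flank on the Hoxc4 side was covered to 8.79% and 8.24% in WT cells, 9.17% and 9.68% in CBE_1 cells and 7.98% and 7.69% in CBE_2 cells, so in that flank CBE_1 lay above WT and CBE_2 below it. On the Hoxc13 side of the midpoint, coverage was 1.86% and 2.36% in WT cells, 7.53% and 7.44% in CBE_1 cells and 9.20% and 9.96% in CBE_2 cells. On the Hoxc4 side it was 4.06% and 2.95% in WT cells, 6.87% and 7.98% in CBE_1 cells and 5.35% and 5.08% in CBE_2 cells. The excess over WT was thus larger toward Hoxc13 in both mutated lines. The first 46.3 and 46.4 kb of the window held no peak in WT, while the longest peak-free stretch anywhere in the window was 18.6 and 22.6 kb in CBE_1 cells and 19.2 and 24.6 kb in CBE_2 cells.

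Of the 42 Hoxc regions, 28 were absent from both WT libraries, against 20.5% of all regions. Of these 28, 9 were found in at least 1 library of each mutated line, against 17.9% of all regions absent from WT. Mutated-only regions numbered 3 of 42 (7.14%), against 1.52% of the genome. Region 23, chr15:102807090-102808316, was the widest of them, with folds of 4.07 and 3.23 in CBE_1 cells and 4.54 and 3.76 in CBE_2 cells. Region 25, chr15:102812059-102812557, had folds of 3.32 and 2.71 in CBE_1 cells and 3.31 and 3.33 in CBE_2 cells. Region 20, chr15:102799232-102799687, had 2.71 and 3.02 in CBE_1 cells and 2.94 and 2.58 in CBE_2 cells. All 3 thus lacked a peak in WT and had modest folds in the mutated lines. CBE_1-only regions numbered 4 in Hoxc and 5 in all clusters, against 0.667% of the genome. They were regions 3, 30, 32 and 34, with folds of 2.40 to 3.47, all below the median of their lists. CBE_2-only regions numbered 2 (regions 5 and 10), with folds of 2.79 to 3.43, and the WT-only region 36, chr15:102847919-102848471, had folds of 3.68 and 3.30.

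The largest rank difference within a shared Hox region was also in Hoxc. Region 29, chr15:102829216-102830452, had folds of 2.81 and 2.64 in WT cells, 6.33 and 6.15 in CBE_1 cells, and 6.38 and 6.76 in CBE_2 cells. It ranked at percentiles 1.12 and 0.480 in WT cells, 48.5 and 46.1 in CBE_1 cells, and 38.5 and 43.0 in CBE_2 cells. A region at the very bottom of the shared regions in WT was therefore close to the middle in both mutated lines, and the mean difference stayed between 43.1 and 47.2 percentile points when any 1 library was left out. Its WT peaks were weak, at percentiles 17.8 and 8.02 of their lists. Region 24, chr15:102808615-102809676, differed in the same direction, with percentiles of 0.170 and 0.216 in WT cells, 23.4 and 23.3 in CBE_1 cells and 6.23 and 16.5 in CBE_2 cells. It is the neighbour of the mutated-only region 23, and like region 29 it was not among the shared regions in either of those settings. Region 27, chr15:102817570-102818337, was the highest ranked Hoxc region, at percentiles 31.9 and 35.4 in WT cells, 55.9 and 39.5 in CBE_1 cells and 28.8 and 38.4 in CBE_2 cells, with CBE_1 above the other lines. The widest shared region, region 33, chr15:102843521-102844976, stood at 14.3 and 3.57 in WT cells, 39.5 and 21.7 in CBE_1 cells, and 21.8 and 13.8 in CBE_2 cells, where WT and CBE_2 overlapped.

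Hoxd held the fewest regions, and its peaks clustered toward Hoxd13. Peaks covered 1.80% and 1.58% of the window in WT cells, 2.66% and 1.86% in CBE_1 cells, and 4.71% and 4.15% in CBE_2 cells. Every mutated library was above WT, CBE_1 replicate 2 by little, and CBE_2 was highest. Mean covered length was 2.20 ± 0.200 kb (SD, n = 2) in WT, 2.94 ± 0.735 kb in CBE_1 cells and 5.76 ± 0.521 kb in CBE_2 cells. The number of peaks was 4 and 4 in WT cells, 9 and 6 in CBE_1 cells, and 16 and 13 in CBE_2 cells. The difference of 1.66 points between mutated and WT libraries had an exact permutation p = 0.133 (adjusted 0.178). It turned to -0.513 points with the better 50% of each list, so the excess was not seen among the better peaks of the lists. The side of the window toward Hoxd1 held no peak in any library but CBE_2 replicate 2, where region 20, 257 bp wide, was its single peak.

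Hoxd had 3 regions present in all 6 libraries. Region 19, chr2:74553780-74554367, the highest ranked, stood at percentiles 53.2 and 49.9 among shared regions in WT cells, 9.30 and 33.7 in CBE_1 cells, and 55.5 and 49.9 in CBE_2 cells. Region 6, chr2:74501318-74502060, stood at 39.5 and 43.8 in WT cells, 20.8 and 32.3 in CBE_1 cells, and 8.94 and 30.7 in CBE_2 cells. Region 19 was therefore lower in CBE_1 alone, while region 6 was lower in both mutated lines. Region 10, chr2:74510644-74511400, went the other way, at 15.5 and 19.5 in WT cells, 46.3 and 32.3 in CBE_1 cells, and 28.8 and 29.5 in CBE_2 cells. The mutated-only regions were region 5, chr2:74499777-74500291, with folds of 3.32 and 2.71 in CBE_1 cells and 4.05 and 4.08 in CBE_2 cells, and region 8, chr2:74506200-74506954, with 3.32 and 2.61 in CBE_1 cells and 4.05 and 3.65 in CBE_2 cells. Both lie on the Hoxd13 side, as do 19 of the 20 Hoxd regions. The CBE_2-only regions 1, 3 and 14 had folds of 2.57 to 3.33.

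**Figure D3:**
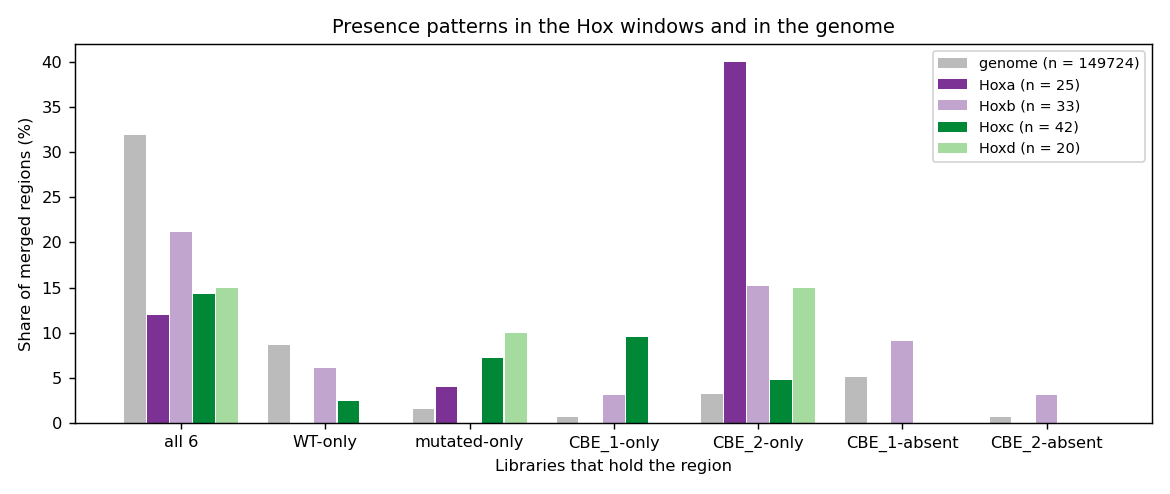
Share of merged regions (y axis, percent) with each presence pattern (x axis) in the genome (grey) and in each Hox window. CBE_2-only regions made up 40.0% of Hoxa regions against 3.14% of the genome, and regions present in all 6 libraries were scarcer in every Hox window than the 31.9% of the genome.

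Over the 120 Hox regions, 19 (15.8%) were present in all 6 libraries, against 31.9% of all regions. The Hox share was lower than the background in each cluster, at 12% in Hoxa, 21.2% in Hoxb, 14.3% in Hoxc and 15% in Hoxd. CBE_2-only regions numbered 20 (16.7%), of which Hoxa supplied 10, against 3.14% of the genome. Mutated-only regions numbered 6 (5%), against 1.52%, and CBE_1-only regions 5 (4.17%), against 0.667%. WT-only regions were fewer than the background, 3 (2.50%) against 8.68%, and CBE_1-absent regions were 3 (2.50%) against 5.05%. A further 37 regions (30.8%) were present in 1 library, close to the 27.9% of the genome, and 26 had other patterns. No test was made of these shares, since regions of 1 window are neighbours and not replicates.

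Over the 4 windows together, the duplicates of a line shared more of their covered Hox bases than libraries of different lines did. The Jaccard index, shared bases over bases covered in either library, was 0.750 for the WT duplicates, 0.518 for CBE_1 and 0.678 for CBE_2. Between lines it was on average 0.330 for WT with CBE_1, 0.282 for CBE_1 with CBE_2 and 0.247 for WT with CBE_2. By cluster, the CBE_2 duplicates were most alike in Hoxa, at 0.849, where the index of WT with CBE_2 was 0.124 on average. The index cannot exceed the shorter covered length over the longer one. In Hoxa these lengths were 3.38 and 2.55 kb in WT cells and 23.7 and 24.0 kb in CBE_2 cells. All 4 pairs of a WT and a CBE_2 library were at that limit, so almost all WT bases in Hoxa also lay in CBE_2 peaks. The order of the line pairs varied between clusters. In Hoxc, CBE_1 with CBE_2 reached 0.421, above the 0.233 of WT with CBE_1 and the 0.229 of WT with CBE_2, while in Hoxb WT with CBE_2 was highest at 0.440, above 0.343 for WT with CBE_1 and 0.346 for CBE_1 with CBE_2. In Hoxd the duplicates of CBE_1, at 0.418, and of CBE_2, at 0.460, were less alike than CBE_1 replicate 2 was to the WT libraries, at 0.547 and 0.586. In Hoxa, WT replicate 1 and CBE_1 replicate 2 reached 0.582, above the 0.562 of the CBE_1 duplicates.

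**Figure D4:**
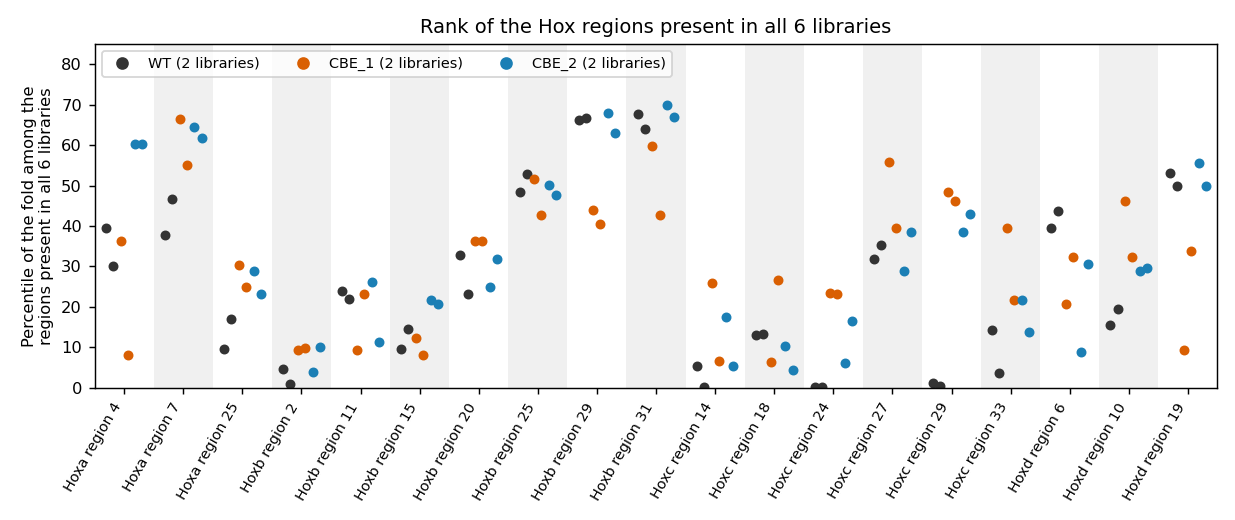
Percentile of the fold (y axis) of each of the 19 Hox regions present in all 6 libraries (x axis), ranked among all regions present in all 6; each dot is 1 library. Region 29 of Hoxc lies near 0 in WT cells and between 38.5 and 48.5 in the mutated libraries, and region 4 of Hoxa is highest in both CBE_2 libraries.

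The 19 shared Hox regions were compared by rank between lines, with the share over all shared regions beside each count. In 5 of 19 all 4 mutated libraries ranked above both WT libraries, near the 20.3% of all shared regions. In 1 of 19 both WT libraries ranked above all mutated ones (20.1%). The 5 were region 7 and region 25 of Hoxa, regions 24 and 29 of Hoxc and region 10 of Hoxd, and the 1 was region 6 of Hoxd. With lists of equal length the 2 counts were 3 and 1 of 14 shared Hox regions. The median difference, mutated minus WT, was 5.51 percentile points in the 19 and 0.199 over all shared regions. CBE_1 ranked above WT in 10 of 19 (36.9%) and below in 4 (33.6%). Of those 10, 5 were in Hoxc and 2 in Hoxb. With lists of equal length CBE_1 ranked above WT in 5 of 14 shared Hox regions and below in 4. CBE_2 ranked above WT in 7 of 19 (33.2%) and below in 2 (33.2%), CBE_1 above CBE_2 in 5 (34.1%) and below in 5 (31.5%). Both CBE_2 libraries ranked above the other 4 in 2 of 19 (15.1%), which were region 4 of Hoxa and region 15 of Hoxb. With 19 regions these counts are small, and the comparisons with WT share the same 2 WT libraries.

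Within a library, the clusters differed in how much of the window was open. The order depended on the line: in WT it was Hoxb (4.47% on average), Hoxc (2.81%), Hoxa (2.12%) and Hoxd (1.69%), in CBE_1 Hoxc was highest (7.45%) and in CBE_2 Hoxa (17.0%). Hoxa was above Hoxd in 6 of 6 libraries, by 4.51 points on average. Without CBE_2 replicate 1 or 2, which each leave the other CBE_2 library in, it was 2.97 and 2.82 points. Mean coverage of Hoxa and Hoxd was 2.12% and 1.69% in WT cells, 2.78% and 2.26% in CBE_1 cells, and 17.0% and 4.43% in CBE_2 cells. Hoxc was above Hoxd in 6 of 6, by 3.09 points. Hoxa minus Hoxd and Hoxc minus Hoxd each had p = 0.0312 in an exact sign-flip permutation test over the 6 libraries, the smallest it can give. After adjustment over the 6 pairs of clusters each had 0.0938. None of the other 4 pairs reached that p, and Hoxa exceeded Hoxc in only 2 of 6 libraries, both of CBE_2. Against its flanks, Hoxa was more covered in 5 of 6 libraries, by 5.46 points (exact permutation p = 0.0625, adjusted 0.188). The difference was 3.66 and 3.64 points without CBE_2 replicate 1 or 2, again with the other CBE_2 library left in. In WT cells the window was covered to 2.41% and 1.82% and its flanks to 1.84% and 1.84%. In CBE_1 cells these were 2.80% and 2.77%, and 1.17% and 1.24%. In CBE_2 cells they were 16.9% and 17.1%, and 2.45% and 2.57%, so the size came from CBE_2. The difference from the flanks was 0.922 points for Hoxb, 1.42 for Hoxc and 1.09 for Hoxd, with adjusted exact permutation p from 0.188 to 0.219. It depended on the borders in Hoxb and Hoxc. In Hoxb it was 1.42 with windows narrowed by 10 kb, 1.33 with flanks of 50 kb and -1.10 with windows widened by 10 kb. In Hoxc it was 5.83, 5.48 and -0.658 in the same order. The 2 libraries of a line are not independent lines, so these p-values cover the 6 libraries and not 3 lines.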

How the data were processed

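Open chromatin was measured by ATAC-seq in 6 libraries of 3 pro-B lines, and 1 peak list per library was deposited by the authors. Trimmomatic, Bowtie2, SAMtools, Picard and the build mm9 are named per the submitters' processing notes. For the peak caller, its settings and any read shift, nothing was stated in the notes used here; a shift for the transposase would move peak edges by a few bases. The deposited score, the fold over background (a ratio) and the −log10 p-values and q-values are the authors' values per peak, called per library, and were used only within a list. Positions are the deposited peak coordinates, written 1-based. Read depth is unknown.

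Peaks overlapping the windows were merged at 1 bp overlap across the whole genome, and covered bases were clipped at the window borders. A region's rank was the percentile of its highest fold in a list, or among regions present in all 6 libraries. Groups came from the labels. Lines were compared by exact two-sided permutation tests over libraries, clusters by exact sign-flip tests, with Benjamini-Hochberg adjustment at a threshold of 0.05. No set test was run. Named regions were, in each cluster, the highest ranked and widest shared regions, up to 6 per line pattern, and the shared regions with the largest rank differences (6 for mutated against WT and 3 for CBE_1 against CBE_2, each way); regions named beyond these were chosen after their values were seen. The windows, members and lists were chosen with earlier results of these data known. Alternatives were the better 50% of each list, equal list length, borders moved by 10 kb, flanks of 50 kb, merging gaps of 200 bp, regions of 250 bp around summits, ranks by −log10 q, and leaving out each library. The planned gene-based lists (pro-B markers) were not run, since no mm9 annotation was used here. Promoters are from RefSeq, GRCm38.p6. Python 3.11.15, pandas 2.3.3, NumPy 2.4.6, SciPy 1.17.1 and matplotlib 3.10.9 were used, and the merging and tests were tested on simulated data.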

Additional observations from a re-analysis of the deposited data

Results flagged for a closer look

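In Hoxb the mutated lines lay on opposite sides of WT. Both CBE_1 libraries were below both WT libraries and both CBE_2 libraries above them in covered percent, in covered bases per Mb of the list and in number of peaks. The mean of CBE_2 exceeded that of CBE_1 by 2.20 percentage points, by 58.6 bp per Mb and by 13.5 peaks. With the better 50% of each list this pattern was lost: Hoxb then took 162 and 180 bp per Mb in WT cells, 77.4 and 68.8 in CBE_1 cells and 120 and 108 in CBE_2 cells, and peaks numbered 11 and 11, 4 and 4, and 9 and 7. With lists of equal length CBE_2 was also below WT in covered percent, at 3.93% and 3.68% against 4.19% and 4.27%. The difference between the lines' effects was not tested beyond the exact permutation test of CBE_1 against CBE_2, whose smallest p with 2 against 2 libraries is 0.333. The Hoxb flanks were covered to 3.15% and 3.04% in WT cells, 2.61% and 2.57% in CBE_1 cells and 3.43% and 3.16% in CBE_2 cells, the same order of lines at a smaller size. Chromosome 11 held 5.27% and 5.34% of the peaks in WT cells, 7.14% and 6.72% in CBE_1 cells, and 6.12% and 6.16% in CBE_2 cells, so CBE_1 had fewer Hoxb bases on a chromosome that held a larger share of its peaks than in the other lines. The part of either in the result was not tested.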

How the results depend on the processing

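With the better 50% of each list, the mutated minus WT difference turned for Hoxd in covered percent (-0.513), in bp per Mb of the list (-7.31) and in peaks (-0.750), and for Hoxb in peaks (-5.00); in Hoxb bp per Mb went from -1.80 to -77.6. Hoxb minus Hoxc turned to 0.744 points, Hoxc minus its flanks to -1.36 and Hoxd minus its flanks to -0.559. In the same setting 7 Hox regions were present in all 6 libraries, 3 were mutated-only, 0 CBE_1-only, 12 CBE_2-only, 1 CBE_1-absent (1 in Hoxb) and 0 CBE_2-absent, and of the 7 shared regions 2 ranked above in mutated and 0 in WT. Lists of equal length gave 13 CBE_2-only, 5 mutated-only Hoxc regions and 3 ranked above in mutated. Counts of the pairs of lines moved too: with the better 50%, CBE_1 ranked above WT in 2, CBE_2 above WT in 2 and CBE_1 above CBE_2 in 0. Windows widened by 10 kb turned Hoxb minus flanks to -1.10 and Hoxc minus flanks to -0.658, while narrowed windows and flanks of 50 kb gave 5.83 and 5.48 for Hoxc. Merging over gaps of 200 bp gave 1 CBE_1-absent region (1 in Hoxb), and summit regions gave 2 CBE_2-absent. The cause was not tested.

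Leaving out 1 library, the Hoxb difference ran from -11.7 to 13.5 bp per Mb, above 0 without WT replicate 2, CBE_1 replicate 1 or CBE_1 replicate 2. Hoxa minus Hoxc ran from -0.221 to 2.70, below 0 without either CBE_2 library (-0.221 and -0.216), and region 4 of Hoxa from -0.0574 to 17.3 percentile points, below 0 without either CBE_2 library (-0.0574 and -0.0372). Counts ran from 3 to 5 for WT-only, 6 to 11 for mutated-only, 5 to 14 for CBE_1-only, 20 to 38 for CBE_2-only, 1 to 2 for CBE_2-absent, 3 to 5 for mutated-only in Hoxc, 6 to 9 for mutated ranked above WT and 1 to 3 for the reverse, and 5 to 10 for CBE_1 above CBE_2, 8 to 13 for CBE_2 above WT and 2 to 6 for WT above CBE_2. A smaller group is easier to separate. No adjusted p for covered percent, bp per Mb, peaks, pairs of clusters or flanks was under 0.05 in any setting. For the comparisons of lines this was fixed by the design. Their exact permutation test cannot go below p = 0.0667 with 2 against 4 libraries or 0.333 with 2 against 2. With 1 library left out, the sign-flip tests could not pass 0.05 either. The mutated minus WT differences of Hoxa and Hoxc kept their sign in all settings. No paired analysis was possible because the labels give the duplicates no numbers that link them across lines.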
